A study of Mus musculus with 12 samples.

Results

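The genes described here are 10 markers of tissue-resident macrophages: Cx3cr1, P2ry12, Tmem119, Csf1r, C1qa, C1qb, C1qc, Clec4f, Timd4 and Vsig4. They were chosen by symbol as markers of microglia or of Kupffer cells, and all 10 were found, each as 1 row, in a table of 55450 genes. The series compared mice that lack Vaultrc5, a small non-coding vault RNA, with wild-type mice, and asked what its loss does to the transcripts of 2 organs. Total RNA was sequenced in 4 groups of 3 libraries each: wild-type brain, Vaultrc5-/- brain, wild-type liver and Vaultrc5-/- liver. All 12 libraries came from male mice 7 to 9 weeks old. The titles call the control libraries flx, and their genotype label is wild-type. The labels name no Cre, strain or extent of the deletion, do not say whether the 3 libraries of a group came from separate mice, and do not say whether a brain and a liver library with the same number came from 1 mouse. The p-values below therefore measure the spread between these libraries only.

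Microglia are the resident macrophages of the brain and Kupffer cells are those that line the sinusoids of the liver. Both kinds live on signals through the receptor Csf1r and both make complement C1q, while the surroundings of each tissue impose further programmes: Cx3cr1, P2ry12 and Tmem119 mark microglia, and Clec4f, Timd4 and Vsig4 mark Kupffer cells. Cx3cr1 is the receptor for the chemokine Cx3cl1, which neurons carry on their surface, P2ry12 is a nucleotide receptor that guides microglial processes, and Tmem119 is a membrane protein used to tell microglia from other brain macrophages. Csf1r binds the growth factors Csf1 and Il34. C1qa, C1qb and C1qc encode the chains of C1q, which starts the classical complement pathway with the proteases C1r and C1s. Clec4f is a galactose-binding lectin, Timd4 a phosphatidylserine receptor for dying cells, and Vsig4 a receptor for fragments of complement C3.

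The macrophage factor Spi1 (PU.1) belongs to the ETS family and binds sites with a GGAA core, alone or next to an interferon regulatory factor such as Irf8. The 250 bases before the RefSeq start (GRCm38.p6), and none after it, were searched; they were found for 7 members: Cx3cr1, P2ry12, C1qb, C1qc, Clec4f, Timd4 and Vsig4. Tmem119, C1qa and Csf1r had no entry. Both strands were searched for GGAAGT, for the longer GAGGAAGT, which holds it, and for an ETS-IRF composite, GGAA and GAAA with any 2 bases between them. GGAAGT or its reverse complement ACTTCC was in 6 of the 7 windows (not Cx3cr1), against 19.7% of 32851 RefSeq promoters. GAGGAAGT was in C1qc alone of the 7 and in 2.44% of all promoters, and the composite was in Timd4 alone and in 2.3% of all promoters. These matches describe letters and not bound sites. For P2ry12 alone of the 7, the RefSeq start was not found in a transcript of the GENCODE M21 annotation and lies outside the gene span given there. The stretches below, 60 bases each and 5′ to 3′ on the strand of the gene, show the match in capitals for 1 microglial gene, 2 C1q chains and 2 Kupffer cell genes.
P2ry12, chr3:59263004-59263063 (minus strand): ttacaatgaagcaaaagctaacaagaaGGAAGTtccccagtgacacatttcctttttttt
C1qb, chr4:136886221-136886280 (minus strand): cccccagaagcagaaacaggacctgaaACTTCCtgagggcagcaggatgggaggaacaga
C1qc, chr4:136893077-136893136 (minus strand): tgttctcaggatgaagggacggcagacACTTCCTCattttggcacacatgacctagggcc
Timd4, chr11:46810700-46810759 (plus strand): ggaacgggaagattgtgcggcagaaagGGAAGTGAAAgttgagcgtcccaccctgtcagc
Vsig4, chrX:96293469-96293528 (minus strand): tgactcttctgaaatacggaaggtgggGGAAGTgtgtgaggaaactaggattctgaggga
The capitals are ACTTCC in C1qb and ACTTCCTC in C1qc because the match is on the other strand, and they run over the whole composite in Timd4.

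The members lie on 8 chromosomes (GRCm38, GENCODE M21, whole gene spans). C1qa (chr4:136895917-136898803), C1qc (chr4:136889804-136893065) and C1qb (chr4:136880129-136886187) are neighbours on the minus strand. Cx3cr1 (chr9:119901616-120069879), P2ry12 (chr3:59216272-59262871), Tmem119 (chr5:113793729-113800516), Clec4f (chr6:83644542-83656187) and Vsig4 (chrX:96247203-96293438) are also on the minus strand. Csf1r (chr18:61100598-61132149) and Timd4 (chr11:46810800-46844332) are on the plus strand. P2ry12 lies inside Med12l, which runs the other way, with 9 exon bases in common. Csf1r shares 873 exon bases with Hmgxb3 on the other strand and Cx3cr1 shares 78 with the antisense gene Gm33858. Whether strand was used in counting is not given in the sources used here, so reads from these stretches cannot be told apart. The expected counts of all 10 members were whole numbers in every library.

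The 6 brain libraries held 14844937 to 18567362 counts each, and the 6 liver libraries 23247425 to 27155478. Levels are given as CPM, the count of a gene scaled to its library size by TMM over all 12 libraries. A count of 3, taken as the floor, was worth 0.123 to 0.148 CPM in brain and 0.149 to 0.169 CPM in liver. The targeted gene, Vaultrc5, was counted 33, 39 and 48 times in the wild-type livers, 4, 1 and 4 times in the wild-type brains and 0 times in all 6 knockout libraries. The tissue labels matched other markers: 5 neuronal genes summed to 3030 to 4110 CPM in brain and 25.7 to 34.6 CPM in liver, and 5 hepatocyte genes to 59600 to 96900 CPM in liver and 0.451 to 438 CPM in brain. The higher brain sums of the hepatocyte list came mostly from Ttr. Its log2 difference (brain minus liver, wild type) was -4.83, against -14.92 or lower for the rest of that list.

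Between the tissues of wild-type mice the members split by role: all 3 microglial genes were higher in brain, all 3 Kupffer cell genes were higher in liver, and the C1q chains were a little over 2-fold higher in liver on the TMM scale. The threshold for passing was an adjusted p of 0.05 (edgeR quasi-likelihood test, Benjamini-Hochberg over all genes tested). P2ry12 passed on the brain side, and C1qa, C1qb and C1qc passed on the liver side. A gene too low for the filter on counts in one tissue was tested only because of the other tissue and could come out only as higher there. This held for Clec4f, Timd4 and Vsig4 in both genotypes. In the wild type it also held for Cx3cr1 and Tmem119, which did not meet the filter in every liver library. The levels of these members are given with no test there. The same limit is said of the genes of other lists where they are named. Passing was common in this comparison: 78.6% of 18850 genes did, 43.9% on the brain side and 34.7% on the liver side. The plot of CPM by library shows the split.

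**Figure D1:**
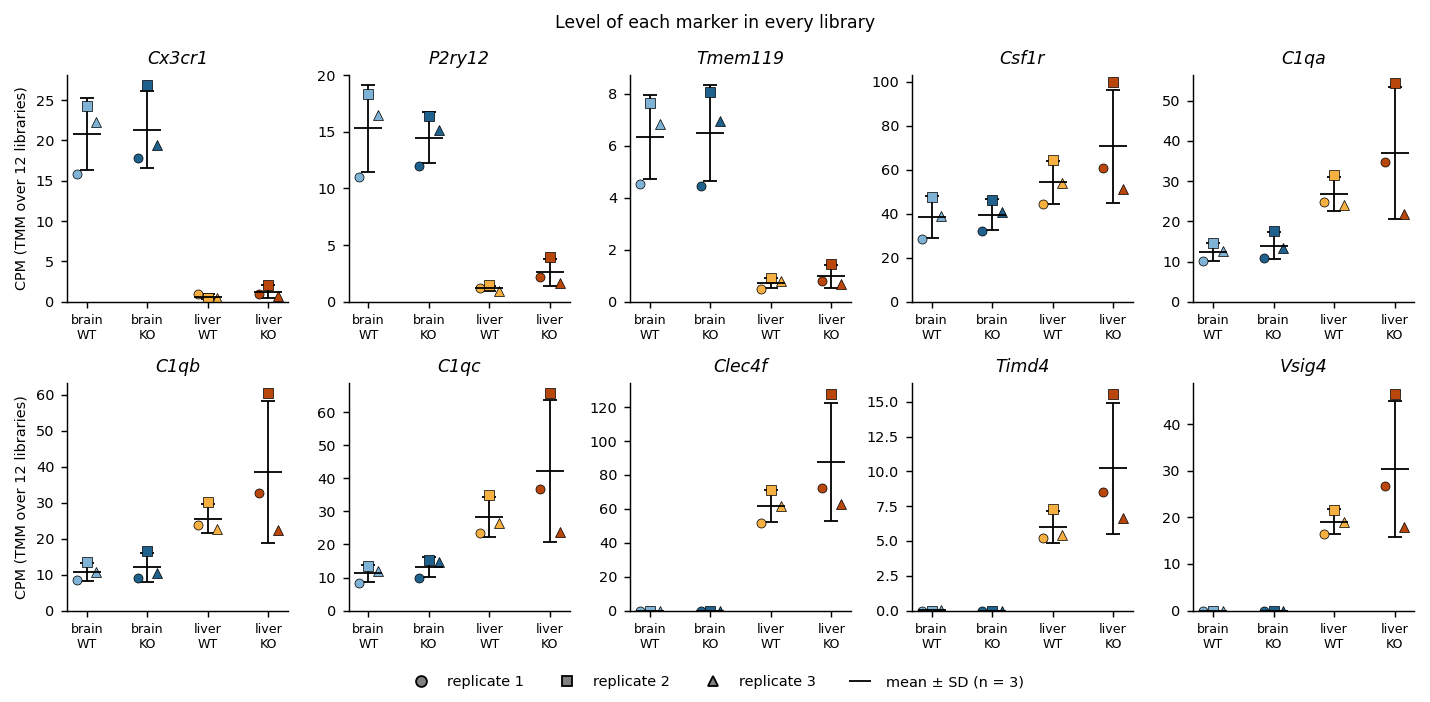
Level of each member in every library, in CPM on a linear axis of its own per gene, by tissue and genotype (WT, wild type; KO, knockout); each symbol is 1 library and the bars are the mean and SD of 3 libraries. Cx3cr1, P2ry12 and Tmem119 are high in the brain libraries, Clec4f, Timd4 and Vsig4 are high in the liver libraries, and Csf1r and the C1q chains are present in both tissues.

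Cx3cr1, the fractalkine receptor, had the greatest brain excess of the 10. It stood at 15.8, 24.2 and 22.3 CPM in wild-type brains 1, 2 and 3 and at 0.957, 0.498 and 0.419 CPM in the livers, where it had 17, 10 and 8 counts. No liver library came near the lowest brain library. The brain mean was 33.3 times the liver mean, with a log2 difference of 5.06 ± 0.32 (SE), given with no test. P2ry12, the nucleotide receptor, was at 11.0, 18.4 and 16.5 CPM in brain and 1.18, 1.45 and 0.996 CPM in liver, a 12.7-fold difference (3.66 ± 0.27 on the log2 scale, edgeR adjusted p = 7.71e-06). Tmem119, the membrane protein, was at 4.51, 7.63 and 6.83 CPM in brain and 0.507, 0.897 and 0.786 CPM in liver. This was an 8.66-fold difference (3.10 ± 0.32), also given with no test. The microglial genes were thus low but above the floor in every liver library. Cx3cr1 and Tmem119, with 8 to 18 counts in a wild-type liver, did not meet the filter in all of these livers. In bulk tissue fewer cells of a type and less RNA per cell cannot be told apart, here and in all results that follow.

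The Kupffer cell genes were not detectable in brain at this depth, apart from 1 count. Clec4f and Vsig4 had 0 counts in all 6 brain libraries, and Timd4 had 1 count in wild-type brain 3 and 0 in the other 5; a count of 0 allows a level of up to 0.148 CPM in the shallowest of them. In the wild-type livers Clec4f was at 52.0, 71.0 and 61.7 CPM, Vsig4 at 16.3, 21.7 and 19.0 CPM, and Timd4, the phosphatidylserine receptor, at 5.23, 7.32 and 5.45 CPM. Set against 3 counts per brain library, the liver level was at least 481-fold higher for Clec4f, at least 149-fold higher for Vsig4 and at least 46.9-fold higher for Timd4.

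Csf1r and the C1q chains were expressed in both tissues. C1qa was at 10.1, 14.6 and 12.6 CPM in wild-type brain and 24.8, 31.6 and 24.2 CPM in wild-type liver, and no brain library reached the lowest liver library. The liver mean was 2.16 times the brain mean for C1qa, 2.36 times for C1qb and 2.52 times for C1qc, with log2 differences (brain minus liver) of -1.10 ± 0.18, -1.23 ± 0.20 and -1.33 ± 0.22 (SE) and edgeR adjusted p-values of 0.000662, 0.000681 and 0.00081. Csf1r was at 28.5, 47.7 and 39.0 CPM in brain and 44.6, 64.3 and 53.9 CPM in liver. Its groups overlapped and it did not pass (-0.49 ± 0.21, edgeR adjusted p = 0.0619). These 4 values depended on the scaling. With library totals in place of TMM the median log2 difference over all genes went from 0.21 up to 1.05, and the genes that passed went from 8275 higher in brain and 6542 higher in liver to 11635 and 3997. On that scale Csf1r turned to 0.34, above 0, and the C1q chains no longer passed, at -0.26, -0.39 and -0.49 (edgeR adjusted p = 0.173, 0.0819 and 0.0612). Csf1r did pass without wild-type brain 2 (-0.74, edgeR adjusted p = 0.0127) and without wild-type liver 1 (-0.63, edgeR adjusted p = 0.0417).

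In the knockout libraries, which the wild-type comparison did not use, all 7 members with reads in both tissues passed, 3 higher in brain and 4 higher in liver (edgeR adjusted p under 0.05), where 78.7% of 18785 genes passed, 43.5% on the brain side and 35.2% on the liver side. The brain level was 16.8 times the liver level for Cx3cr1, 5.58 times for P2ry12 and 6.65 times for Tmem119, with log2 differences of 4.06 ± 0.38, 2.47 ± 0.32 and 2.72 ± 0.37 (SE; edgeR adjusted p = 4.14e-05, 0.000221 and 0.000313). C1qa, C1qb and C1qc were 2.64, 3.2 and 3.19 times higher in liver (edgeR adjusted p = 0.0058, 0.0052 and 0.00407). Csf1r was 1.78 times higher in liver (-0.84 ± 0.26, edgeR adjusted p = 0.0195), a direction that library totals turned to 0.05. Its call was lost without knockout brain 1 (-0.69, edgeR adjusted p = 0.0764) and without knockout brain 3 (-0.87, edgeR adjusted p = 0.054). Clec4f, Vsig4 and Timd4 were at least 632-fold, 219-fold and 73.8-fold higher in liver against the floor, again with no test. With library totals the C1q chains lost their calls here too, at -0.51, -0.79 and -0.78 (edgeR adjusted p = 0.158, 0.0809 and 0.0691), and the split of all genes moved from 8178 higher in brain and 6611 in liver to 11668 and 3871.

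Levels can be set against each other between genes only per length, and for this the CPM were divided by the merged exon length in kilobases. In wild-type brain C1qa led with 12.0 ± 2.17 CPM per kb (SD, n = 3), followed by C1qb at 9.97 ± 2.28, Csf1r at 6.65 ± 1.66, P2ry12 at 6.0 ± 1.51, C1qc at 5.81 ± 1.38, Cx3cr1 at 4.61 ± 0.983 and Tmem119 at 2.73 ± 0.699. Neighbours in this order differed by less than the larger of their SDs, apart from the steps from C1qb to Csf1r and from Cx3cr1 to Tmem119. In wild-type liver C1qa (25.8 ± 3.99 CPM per kb), Clec4f (24.9 ± 3.85) and C1qb (23.5 ± 3.69) led and differed by less than their SD. C1qc (14.6 ± 3.06), Vsig4 (12.8 ± 1.80), Csf1r (9.40 ± 1.71) and Timd4 (2.76 ± 0.529) followed, and P2ry12 (0.474 ± 0.0887), Tmem119 (0.315 ± 0.0869) and Cx3cr1 (0.139 ± 0.0644) closed the order; of these lower 7, C1qc and Vsig4 were the neighbours that differed by less than the larger SD. Of the Kupffer cell genes Timd4 was the lowest per length and Clec4f the highest. The place of C1qc rested on the length used: on the length of its longest transcript it came to 9.33 CPM per kb in wild-type brain and 23.5 in wild-type liver, near C1qb in both.

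**Figure D2:**
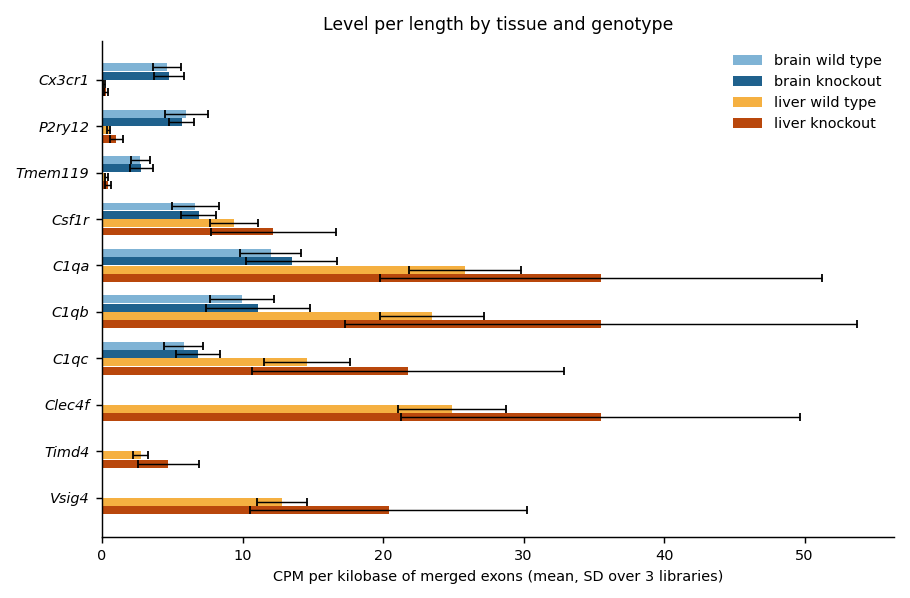
Level per length of each member, in CPM per kilobase of merged exons, in the 4 groups; bars are the mean of 3 libraries and the lines their SD. C1qa has the highest mean in both wild-type tissues, at 12.0 CPM per kb in brain and 25.8 in liver, and Cx3cr1 is the lowest member in liver at 0.139.

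The ligands and partners of the members were distributed between the tissues each in its own way. Cx3cl1, the ligand of Cx3cr1, was at 332 ± 137 CPM in wild-type brain and 1.26 ± 0.161 CPM in wild-type liver (SD, n = 3; log2 difference 8.04 ± 0.39 SE, edgeR adjusted p = 8.22e-07). Il34, the neuronal ligand of Csf1r, was at 16.1 ± 5.93 and 1.53 ± 0.405 CPM (3.39 ± 0.33, edgeR adjusted p = 4.09e-05). Csf1, the other ligand of Csf1r, was at 17.7 ± 4.32 CPM in brain and 14.4 ± 0.129 CPM in liver, and did not pass (0.30 ± 0.18, edgeR adjusted p = 0.16), although it did with library totals (1.15, edgeR adjusted p = 0.000796). The genes of the rest of the classical complement pathway were higher in liver. C1s1 and C1ra, the proteases that bind C1q, were at 577 ± 47.0 and 437 ± 20.7 CPM in liver against 0.669 ± 0.0974 and 1.53 ± 0.384 CPM in brain (-9.73 and -8.15, edgeR adjusted p = 6.62e-08 and 6.8e-08). Their inhibitor Serping1 (-7.53), C4b (-7.30), C2 (-7.00) and C3, the source of the Vsig4 ligands (-13.64), passed in the same direction, as did Tgfb1 (-2.10), a growth factor that microglia need (edgeR adjusted p of 1.61e-05 or less for these 5). In all, 2 of these 10 genes passed on the brain side and 7 on the liver side in either genotype, and 3 and 7 with library totals.

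Of 11 further microglial genes tested, 9 passed higher in wild-type brain, among them Fcrls (6.67 CPM in brain and 0.055 in liver, where it had at most 2 counts) and Gpr34 (4.51 and 0.16 CPM), which, like Trem2, entered the test only through brain. The other 2 passed higher in liver: Slc2a5, a fructose transporter (-2.13 ± 0.27), and Sall1, a transcription factor of microglia that is also active in other cells (15.5 CPM in brain and 35.1 in liver, -1.17 ± 0.23 on the log2 scale, edgeR adjusted p = 0.00199). Of the 8 further Kupffer cell genes tested, C6, Cd5l, Marco and Folr2 had at most 4 counts in a wild-type brain library and entered only through liver, where the complement gene C6 was at 294 CPM and Cd5l at 64.1 CPM. The other 4, counted in both tissues, passed higher in liver. Of 20 genes expressed by macrophages of any tissue, 13 passed higher in liver and 1 higher in brain. Itgam, an integrin, was the 1 in brain (3.08 ± 0.32), and Cybb, a subunit of the oxidase that makes superoxide (-4.83 ± 0.20), stood at the other end. The macrophage factors Spi1 (1.22 CPM in brain and 3.54 in liver; -1.52 ± 0.40, edgeR adjusted p = 0.00837) and Irf8 (2.90 and 8.74 CPM; -1.58 ± 0.23, edgeR adjusted p = 0.000368) were among the 13. The median log2 difference was 1.96 for the microglial list and -1.32 for the general list, against 0.21 for all genes tested. In the knockout libraries the counts were 8 of 11 higher in brain and 2 higher in liver for the microglial list, and 1 of 20 higher in brain with 17 higher in liver. With library totals the general list depended on the scaling most: in the wild type 3 of its 20 genes passed higher in brain and 6 higher in liver, 6 genes turned sign, and Spi1 was at -0.69 (edgeR adjusted p = 0.135) and Irf8 at -0.75 (edgeR adjusted p = 0.0145). On that scale Sall1 no longer passed (-0.33, edgeR adjusted p = 0.219), 9 microglial genes passed higher in brain, and of the 4 further Kupffer cell genes counted in both tissues Il18bp turned to 0.26.

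Markers of other macrophage states and of blood cells were also compared between the tissues of wild-type mice. Of 4 genes of brain border macrophages tested, 1 was higher in brain (F13a1, 1.92 ± 0.54) and 3 in liver, among them Mrc1 (4.04 CPM in brain and 79.3 in liver, -4.28 ± 0.13) and Lyve1 (0.59 and 11.2 CPM, -4.22 ± 0.43). Genes of activated macrophages passed for Gpnmb higher in brain (2.23 ± 0.82) and for 5 others higher in liver, led by Clec7a (-4.96 ± 0.66) and Itgax (-3.54 ± 0.48), of 8 tested; Clec7a and Itgax, with at most 7 counts in a wild-type brain, entered only through liver, and Gpnmb, with at most 9 in a wild-type liver, only through brain. With library totals that list passed for 3 higher in brain and 4 higher in liver, and Axl turned from -0.30 to 0.54 (edgeR adjusted p = 0.00588). Of the 3 blood monocyte and neutrophil genes tested, Plac8 (0 counts in wild-type brain, 3.96 CPM in liver) and Ccr2 (0.196 and 1.88 CPM) were higher in liver, through which alone both entered the test. In the knockout libraries 8 genes of the blood list were tested, of which 4 lay above 0 and 4 below, with a median of -0.07. Plac8 and Ccr2 passed higher in liver, through which alone both entered here too. With library totals the median was 0.81 and Ngp, a neutrophil granule protein, passed higher in brain (2.89, edgeR adjusted p = 0.0185). Ngp was too low for the filter in the knockout livers and could come out only as higher in brain. These lists hold genes that endothelial and other cells also express, and their part in the difference of the members was not tested.

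In brain the loss of Vaultrc5 went with no change in the members that could be detected. The 7 members with reads in brain were tested and 0 passed, nor did any of the 18075 genes (0% called; edgeR adjusted p = 1 for all 7 members). At an unadjusted p under 0.05 there were 0 of the 7 members and 0.675% of all genes, and the DESeq2 Wald test also called 0 genes. Cx3cr1 was at 15.8, 24.2 and 22.3 CPM in wild-type brains 1, 2 and 3 and at 17.8, 26.8 and 19.4 CPM in knockout brains 1, 2 and 3. Its groups overlapped, as did those of the other 6 members; over all genes the groups lay apart for 1.93% (knockout higher) and 2.31% (knockout lower). The log2 differences (knockout minus wild type) were 0.03 ± 0.22 (SE) for Cx3cr1, -0.08 ± 0.22 for P2ry12, 0.03 ± 0.29 for Tmem119, 0.04 ± 0.22 for Csf1r, 0.17 ± 0.21 for C1qa, 0.15 ± 0.27 for C1qb and 0.23 ± 0.24 for C1qc. The median was 0.04 with 6 of 7 above 0, against a median of -0.01 and 48.3% above 0 for all genes tested, and without knockout brain 2 it was -0.13 with 6 of 7 members below 0. Clec4f, Timd4 and Vsig4 were too low to test.

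The brain libraries differed more within a genotype than between genotypes. Csf1r ran from 28.5 CPM in wild-type brain 1 to 47.7 in wild-type brain 2, and from 32.1 in knockout brain 1 to 46.2 in knockout brain 2. Wild-type brain 1 was the lowest library for 6 of the 7 members and knockout brain 1 for the other; knockout brain 2 was the highest for 5 and wild-type brain 2 for the other 2. The median deviation of the 7 members from their own mean over the 6 libraries was -0.41 (log2) in wild-type brain 1 and -0.29 in knockout brain 1, and 0.27 and 0.37 in wild-type and knockout brain 2. The brain libraries numbered 1 were thus low and those numbered 2 high in both genotypes. The 5 neuronal genes summed to 3030, 4110 and 3040 CPM in wild-type brains 1, 2 and 3 and to 3330, 3870 and 3470 CPM in knockout brains 1, 2 and 3, also lowest in number 1 and highest in number 2. Snap25, Syt1 and Slc17a7 carried this sum, while Gad1 and Rbfox3 were higher in number 1 than in number 2 in both genotypes. The list of hepatic stellate cell and cholangiocyte genes ran the other way, at 332, 111 and 145 CPM and at 322, 98.7 and 227 CPM, most of it from Reln, which neurons also express. The 6 genes of astrocytes and oligodendrocytes followed neither order, at 2690, 1610 and 4850 CPM in the wild type and 2030, 2630 and 1800 CPM in the knockout. The part of other cells in the members' values was not tested.

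**Figure D3:**
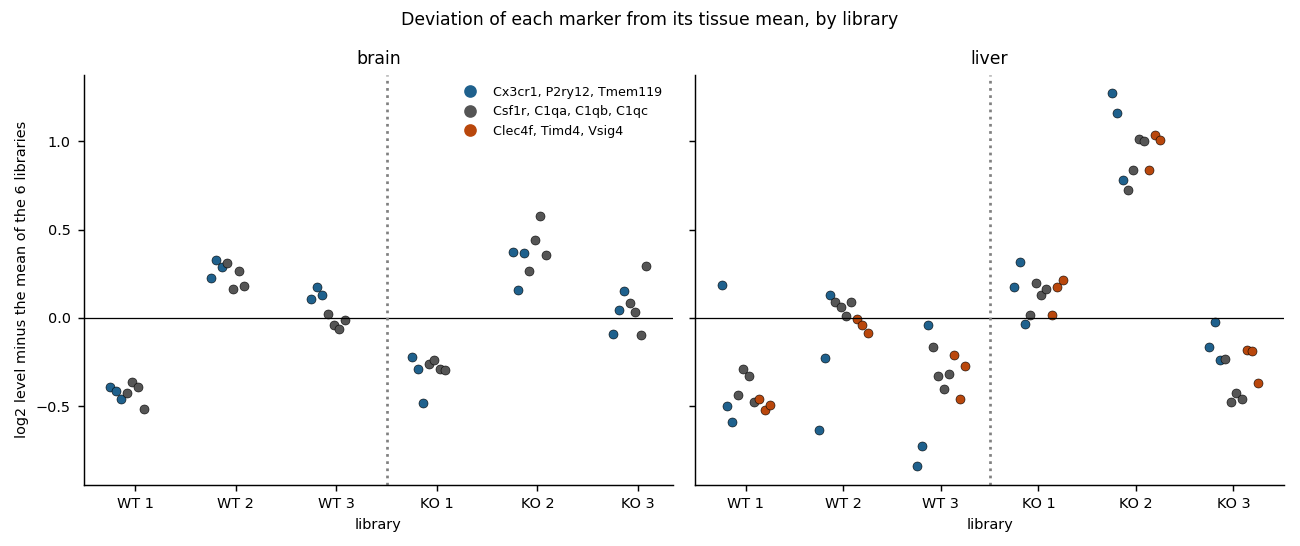
Deviation of each member from its own mean over the 6 libraries of a tissue, on the log2(CPM + 0.1) scale, by library (WT, wild type; KO, knockout); each point is 1 member, coloured by its role. In liver, knockout library 2 is the highest for all 10 members, with deviations of 0.72 to 1.27, and in brain the libraries numbered 1 lie below the mean and those numbered 2 above it.

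In liver all 10 members had a log2 difference above 0, and none passed the test. P2ry12, low in liver but measured by 19 to 70 counts per library, was at 1.18, 1.45 and 0.996 CPM in wild-type livers 1, 2 and 3 and at 2.16, 3.94 and 1.68 CPM in knockout livers 1, 2 and 3. It was the 1 member whose groups did not overlap, which in this direction held for 4.16% of all genes. Its log2 difference was 1.11 ± 0.37 (SE; edgeR unadjusted p = 0.019, adjusted p = 0.992). Over all genes, 0 of 15329 passed (0% called) and 536, or 3.5%, had an unadjusted edgeR p under 0.05, as did 1 of the 10 members. The DESeq2 Wald test called 10 genes, 0 of them members.

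The Kupffer cell genes were above every wild-type liver in 2 of the 3 knockout libraries. Clec4f was at 52.0, 71.0 and 61.7 CPM in wild-type livers 1, 2 and 3 and at 72.3, 128 and 63.0 CPM in knockout livers 1, 2 and 3. Timd4 was at 5.23, 7.32 and 5.45 CPM and at 8.52, 15.6 and 6.62 CPM. Vsig4 was at 16.3, 21.7 and 19.0 CPM and at 26.8, 46.4 and 17.8 CPM. For each of the 3, knockout liver 2 stood far above the other 5 libraries, knockout liver 1 was second and above the highest wild-type liver, and knockout liver 3 lay within the wild-type range. The log2 differences were 0.52 ± 0.29 for Clec4f, 0.78 ± 0.33 for Timd4 and 0.68 ± 0.35 for Vsig4 (SE; edgeR adjusted p = 0.992 for each).

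Csf1r and the C1q chains were also highest in knockout liver 2. Csf1r was at 44.6, 64.3 and 53.9 CPM in the wild type and 60.9, 99.8 and 51.3 CPM in the knockout, and C1qc at 23.6, 34.9 and 26.4 CPM and 36.9, 65.9 and 23.8 CPM. Knockout liver 3 was below 2 of the 3 wild-type livers for both genes. For C1qa and C1qb it was the lowest of the 6 libraries, at 21.8 CPM against 24.2 to 31.6 CPM in the wild type and at 22.3 CPM against 22.7 to 30.1 CPM. The log2 differences were 0.39 ± 0.28 for Csf1r, 0.47 ± 0.33 for C1qa, 0.60 ± 0.38 for C1qb and 0.59 ± 0.39 for C1qc (SE; edgeR adjusted p = 0.992 for each). Hmgxb3, which overlaps Csf1r on the other strand, had a mean of 28.3 ± 2.80 CPM over the wild-type livers and 25.6 ± 1.25 CPM over the knockout livers (SD, n = 3). Cx3cr1 went from 17, 10 and 8 counts to 18, 38 and 13 (1.04 ± 0.53), and Tmem119 from 9, 18 and 15 counts to 15, 26 and 12 (0.42 ± 0.42), values that rest on few reads. Only in the knockout did these 2 genes meet the filter in all 3 libraries.

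One library carried most of these differences. Knockout liver 2 was the highest of the 6 liver libraries for 10 of 10 members, with deviations of 0.72 to 1.27 (median 1.00) from the members' means on the log2 scale. The median deviation was 0.17 in knockout liver 1 and -0.24 in knockout liver 3, and -0.47, 0.00 and -0.32 in wild-type livers 1, 2 and 3. With all libraries the median log2 difference of the 10 members was 0.60, against 0.00 for all genes tested, of which 51.3% lay above 0. Without knockout liver 2 the median was 0.12, 9 of 10 members were above 0 and the values ran from -0.0041 for Tmem119 to 0.66 for P2ry12; Clec4f was then at 0.13, Timd4 at 0.33 and Vsig4 at 0.23. Without knockout liver 3 the median was 0.87 and 7 of 10 members had an unadjusted edgeR p under 0.05, against 7.23% of all genes, and still none passed after adjustment.

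Same-numbered wild-type and knockout livers deviated together across genes, so the replicate number was also fitted as a block. With this replicate block the median log2 difference of the members was 0.50, and 4 of 10 had an unadjusted edgeR p under 0.05, against 6.41% of all genes: P2ry12 (1.05 ± 0.28, unadjusted p = 0.00655), Timd4 (0.71 ± 0.18, unadjusted p = 0.00543), Clec4f (0.46 ± 0.16, unadjusted p = 0.031) and Csf1r (0.35 ± 0.14, unadjusted p = 0.0438). No member passed after adjustment (edgeR adjusted p = 0.711 to 0.88), while 2 of 15329 genes (0.013%) did. Knockout liver 2 was 1.55 to 4.3 times its same-numbered wild-type library over the 10 members, knockout liver 1 was 0.99 to 1.82 times, and knockout liver 3 was 0.856 to 1.74 times. In the pair numbered 3, 6 of the 10 members were lower in the knockout.

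**Figure D4:**
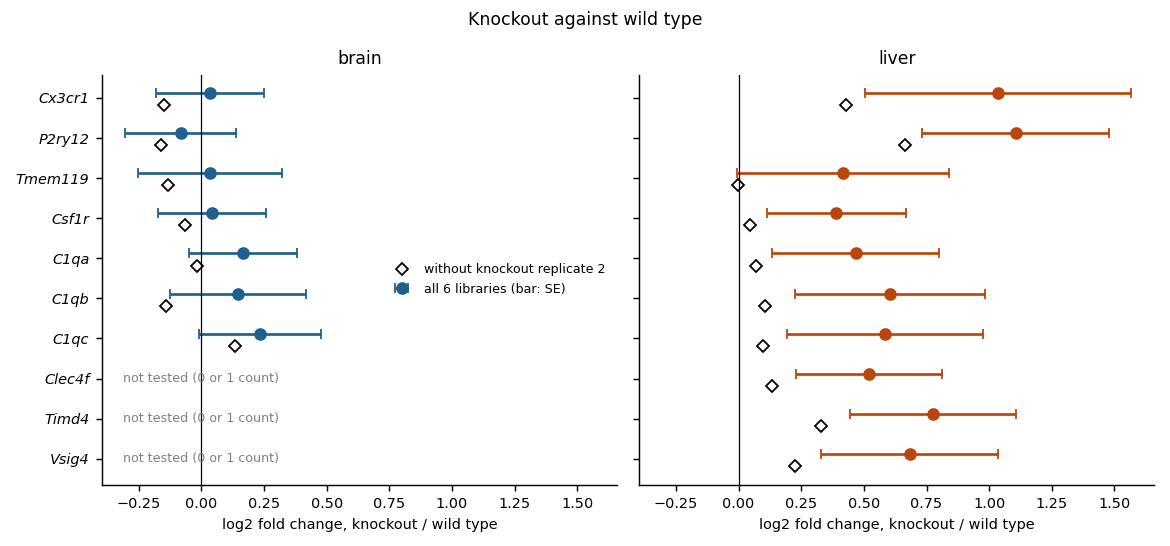
Log2 fold change of each member, knockout over wild type, in brain (left) and liver (right); circles with bars are the estimate and its SE over all 6 libraries, and open diamonds are the estimate without knockout replicate 2. All 10 circles lie above 0 in liver and the diamonds lie between -0.0041 and 0.66, while in brain the 7 circles lie between -0.08 and 0.23.

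Other genes of macrophages were mostly above 0 in liver, without passing the test. Of the 20 genes of macrophages of any tissue, 0 passed, 20 had a log2 difference above 0 with a median of 0.57, and 8 had an unadjusted edgeR p under 0.05, against 3.5% of all genes. Without knockout liver 2 these values were 18 of 20, 0.25 and 1, and without knockout liver 3 the median was 0.73. The count of 8 was also 1 without wild-type liver 1, 2 without wild-type liver 3, 16 without knockout liver 3 and 12 with the replicate block. The 20 genes summed to 284, 377 and 421 CPM in wild-type livers 1, 2 and 3. In knockout livers 1, 2 and 3 they summed to 351, 501 and 507 CPM, highest in knockout liver 3. Spi1 was at 0.69 ± 0.30, Irf8 at 0.26 ± 0.19 and Sall1 at -0.12 ± 0.25. Of 9 further Kupffer cell genes 8 were above 0, with a median of 0.45 that went to 0.08 without knockout liver 2, and their sum was highest in knockout liver 2, at 1030 CPM against 511 to 750 CPM in the other 5 libraries; C6 alone gave 569 of the 1030 CPM. Of 8 further microglial genes tested 7 were above 0, with a median of 0.35, and the sum of that list was highest in knockout liver 3 (76.2 CPM, of which Sall1 gave 41.7, against 69.3 CPM in knockout liver 2, of which it gave 27.2). The 9 genes of activated macrophages summed to 131, 148 and 158 CPM in wild-type livers 1, 2 and 3 and to 161, 285 and 144 CPM in knockout livers 1, 2 and 3, highest in knockout liver 2, where Spp1 gave 136 CPM, and 7 of 7 tested were above 0, with a median of 0.28. The 7 genes of brain border macrophages summed to 169, 176 and 203 CPM and to 192, 186 and 194 CPM, with knockout liver 2 inside the wild-type range, and 5 of 6 tested were above 0, with a median of 0.15. Of the 10 ligands and partners none passed, and the median was 0.08: Cx3cl1 was at 0.58 ± 0.39, Csf1 at 0.08 ± 0.14, Il34 at -0.14 ± 0.32, C1ra at 0.07 ± 0.09, C1s1 at 0.01 ± 0.11, Serping1 at 0.20 ± 0.15, C2 at 0.01 ± 0.19, C3 at 0.18 ± 0.19, C4b at 0.23 ± 0.26 and Tgfb1 at 0.08 ± 0.13.

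Markers of other cells in the liver libraries were summed in the same way. The 5 hepatocyte genes summed to 90800, 75600 and 95900 CPM in wild-type livers 1, 2 and 3 and to 76500, 59600 and 96900 CPM in knockout livers 1, 2 and 3, so that knockout liver 2 was the lowest of the 6. The 10 blood monocyte and neutrophil genes summed to 10.2, 10.7 and 6.71 CPM and to 9.73, 21.3 and 9.7 CPM. The 7 lymphocyte genes summed to 4.22, 4.33 and 3.14 CPM and to 5.05, 6.65 and 4.93 CPM. Knockout liver 2 was the highest library for both of these lists. The 5 genes of sinusoidal endothelium, the cells next to Kupffer cells, ran from 277 to 341 CPM in the wild type and stood at 353, 300 and 322 CPM in knockout livers 1, 2 and 3, so that knockout liver 2 lay inside the wild-type range and knockout liver 1 was the highest of the 6. The 5 genes of endothelium in general summed to 115, 114 and 135 CPM in wild-type livers 1, 2 and 3 and to 147, 143 and 132 CPM in knockout livers 1, 2 and 3, so that knockout livers 1 and 2 were above every wild-type liver. The 5 genes of stellate cells and cholangiocytes summed to 374, 429 and 430 CPM and to 373, 348 and 442 CPM, with knockout liver 2 the lowest. The part of these cells in the members' values was not tested.

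In brain none of the genes of these lists passed. Of 19 genes of macrophages of any tissue tested 12 were above 0, with a median log2 difference of 0.15, and of 11 further microglial genes 5 were above 0, with a median of -0.02. Of the 6 genes of astrocytes and oligodendrocytes 5 were below 0, with a median of -0.57, and the 4 blood monocyte and neutrophil genes tested had a median of 1.56. The whole blood list summed to 15.2 CPM in knockout brain 2, 4.2 and 4.15 CPM in knockout brains 1 and 3, and 3.32 to 4.88 CPM in the wild type. The astrocyte and oligodendrocyte list summed to 4850 CPM in wild-type brain 3 and to 1610 to 2690 CPM in the other brain libraries. Spi1 was at 0.20 ± 0.42, Irf8 at 0.00 ± 0.28 and Sall1 at -0.26 ± 0.25. Of the 10 ligands and partners 7 were above 0, with a median of 0.12 and values from -0.30 ± 0.19 for Csf1 to 1.57 ± 1.23 for C3, which had 4 to 132 counts per brain library. Cx3cl1 was at 0.17 ± 0.32, Il34 at 0.07 ± 0.29, C1ra at 0.30 ± 0.46, C1s1 at 0.71 ± 0.44, Serping1 at -0.10 ± 0.33, C2 at 0.04 ± 0.30, C4b at -0.22 ± 0.42 and Tgfb1 at 0.16 ± 0.20.

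Whether the knockout difference itself differed between liver and brain was tested over all 12 libraries. Of 20141 genes 0 passed (0% called, edgeR), 2.43% had an unadjusted p under 0.05, and the DESeq2 Wald test called 1 gene, not a member. P2ry12 had the largest difference of the 7 members with reads in both tissues, at 1.17 ± 0.44 (SE; liver minus brain on the log2 scale; edgeR unadjusted p = 0.0213, adjusted p = 1). Cx3cr1 was at 0.98 ± 0.55, and Tmem119, Csf1r, C1qa, C1qb and C1qc were at 0.36, 0.33, 0.28, 0.44 and 0.33, with an edgeR adjusted p of 1 for each. With a replicate block within each tissue P2ry12 was at 1.12 ± 0.24 (edgeR unadjusted p = 0.00121, adjusted p = 0.761), and 2 genes were called. The Kupffer cell genes gave no usable value because they had no more than 1 count in any brain library.

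Genes whose profile over the 6 libraries of a tissue was most like that of the markers were ranked by the root mean square difference of centred log2 CPM, among genes at a mean of 5 CPM or more. In liver, the 5 genes nearest to the mean profile of Clec4f, Timd4 and Vsig4 were Lyz2 (0.0646), a lysozyme of myeloid cells, Sdc3 (0.0713), Slc8a1 (0.0808), Fgfr1 (0.0821) and Lcp2 (0.0838), a signalling adaptor of blood cells, of 10364 genes with a median difference of 0.503. C1qc, C1qb, Csf1r and C1qa stood at places 8, 9, 19 and 22. In brain, the genes nearest to the mean profile of Cx3cr1, P2ry12 and Tmem119 were Cyb561 (0.0279), Gm38451 (0.0279), Tmem151a (0.0284), Kcnab2 (0.0409) and Rnf157 (0.0431), of 11621 genes with a median of 0.303. Csf1r stood at place 15 in brain and C1qa, C1qc and C1qb at places 209, 443 and 633. Each profile is over 6 libraries that share their depth and scaling with the markers.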

How the data were processed

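Per the labels' protocols, TRIzol RNA was treated with DNase, depleted of ribosomal RNA and made into stranded ligation libraries, read as single ends. The submitters' processing notes name cutadapt, STAR and the build mm10; the counting tool, annotation and use of strand are not given in the sources used here. What the authors deposited is 1 table of expected counts, a column for each library, without normalization. All 55450 identifiers matched GENCODE M21. About 5% of values are fractional; counts were rounded. Floors cover counting error only.

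Comparisons used edgeR 4.0.16 (R 4.3.3; quasi-likelihood, robust, TMM, filterByExpr with a minimum count of 10 and total of 15) fitted on all genes, with Benjamini-Hochberg adjustment at 0.05; each used its own 6 libraries, the interaction all 12. Alternatives were DESeq2 1.42.0 and its size factors, library totals, other filters, robust estimation off, all libraries in one fit, a replicate block and each library left out. On simulated counts with 200 genes changed by 2 (log2), 100% were recovered in the brain (18166 genes) and liver (15405 genes) comparisons and 91% in the interaction (19343 genes). The changed genes were drawn from those at a mean of 5 CPM or more. All genes had the same spread, and libraries differed as a whole only in depth. Smaller changes, such as those of the members between genotypes, were not simulated, so the recovery does not apply to them.

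The titles give both genotypes replicate numbers 1 to 3. Same-numbered livers deviated together from their group means (r = 0.32, 0.32 and 0.37 across 13659 genes), so blocked values are given for liver; brain is treated under the processing section. The members and gene lists were chosen with earlier results of these data known. Besides the members, the genes named were the ligands and partners, Spi1, Irf8 and Sall1, up to 2 genes per list and direction called between tissues in both genotypes, and the 5 nearest profiles in each tissue; 1 gene that this rule names is not reported here. Axl, Il18bp, Ngp, Reln, Spp1 and the genes named as carrying a sum or as entering a test through 1 tissue were chosen after their values were seen. Vaultrc5 and Hmgxb3 serve as checks.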

Additional observations from a re-analysis of the deposited data

How the results depend on the processing

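The microglial genes kept their direction and their calls between the tissues under every alternative in which they were tested. In the wild type Cx3cr1 and Tmem119 entered through brain and could come out only as higher there. Library totals in place of TMM turned Csf1r to 0.34 in wild type and 0.0496 in knockout. On that scale C1qa, C1qb and C1qc lost their calls in both genotypes, and Csf1r lost its call in the knockout. The cause was not tested. In liver, 0 genes were called; the DESeq2 Wald test called 10, no filter beyond 1 count 4 and the replicate block 2, and leaving out 1 library gave 0 to 1. For the interaction, 0 became 1 with DESeq2 and 2 with the block. No member was called between genotypes under any of these. Leaving out 1 library at a time, the brain knockout values ran from -0.15 to 0.16 for Cx3cr1, -0.28 to 0.0725 for P2ry12, -0.16 to 0.25 for Tmem119, -0.13 to 0.23 for Csf1r, -0.0193 to 0.32 for C1qa and -0.14 to 0.33 for C1qb, so that each of these 6 turned sign in at least 1 fit; in liver Tmem119 ran from -0.0041 to 0.61. The interaction ran from -0.0515 to 0.60 for Tmem119, -0.0093 to 0.55 for Csf1r, -0.11 to 0.55 for C1qa, -0.0508 to 0.79 for C1qb and -0.15 to 0.61 for C1qc, lowest without knockout liver 2. In brain the same-numbered libraries correlated at 0.73, 0.71 and -0.03 across 15648 genes. Because the last pair did not correlate, the numbers are not taken to pair the brain libraries. Correlations between libraries of different numbers are not given here for either tissue, so the choice of a block was not tested. A replicate block left the count in brain at 0 genes. With it 1 of 7 members, C1qc (0.23 ± 0.096 SE), had an unadjusted edgeR p under 0.05 (0.0461), against 2.25% of all genes. Brain and liver libraries with 1 number correlated at 0.00 to 0.08. The wild-type tissue comparison with a replicate block called Csf1r (-0.51, edgeR adjusted p = 0.00593). With a filter at a mean of 1 CPM, Cx3cr1 and Tmem119 were not tested in liver. Depth limits the microglial genes in liver, which rest on 8 to 70 counts, and the Kupffer cell genes in brain, which had at most 1.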

Other observations

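Genes of neutrophils were high in the knockout libraries numbered 2 of both tissues. S100a9, a calcium-binding protein of neutrophil granulocytes, had 49 counts in knockout brain 2 against 7 to 11 in the other knockout brains and 2 to 10 in the wild-type brains, and 37 counts in knockout liver 2 against 3 to 15 in the other 5 livers. Ngp, a granule protein, had 73 counts in knockout brain 2 and 5 to 20 in the other 5 brains. In liver Ngp had 15 counts in knockout liver 2, 5 and 1 in knockout livers 1 and 3, and 0 in the wild-type livers. Neither gene passed in brain (edgeR log2 difference 2.32 for Ngp, unadjusted p = 0.0162, and 2.20 for S100a9, unadjusted p = 0.0483; adjusted p = 1 for both). These genes were named after their values were seen, and the labels do not say whether both libraries came from 1 mouse.

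Ratios of counts within a library, chosen after the data were seen, do not depend on the scaling between libraries. In liver, 9 ratios over Clec4f went into an exact permutation test (two-sided), whose smallest possible p is 0.1 with 3 libraries against 3. This smallest p is above the threshold for passing, so no ratio could pass and the test cannot decide whether a ratio changed. The 9 ratios also share the Clec4f count, so they are not independent of each other. The ratio of P2ry12 to Clec4f was 0.0161 to 0.0228 in the wild type and 0.0267 to 0.0309 in the knockout, and that of Timd4 to Clec4f was 0.0883 to 0.103 and 0.105 to 0.122, both higher in the knockout without overlap (exact p = 0.1, adjusted over the 9 ratios 0.3). The ratio of Csf1r to Clec4f was lower, at 0.859 to 0.906 in the wild type and 0.781 to 0.843 in the knockout (exact p = 0.1, adjusted 0.3). The other 6 ratios overlapped (adjusted exact p of 0.72 to 0.9), among them those of the C1q chains and Vsig4. In brain, 6 ratios over Cx3cr1 overlapped in all cases (adjusted exact p of 0.6 to 0.9).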
